A study of Homo sapiens with 4 samples.

Results

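The 3 Pellino ubiquitin ligases (PELI1, PELI2 and PELI3), the IRAK kinases IRAK1, IRAK2 and IRAK4, the adaptor MYD88 and the TAK1 complex genes MAP3K7, TAB1 and TAB2 were read across HepG2 libraries with and without a hairpin against STAT3. They are 10 of 27452 genes in the deposited tables, chosen by symbol, and all 10 had enough reads to enter the test of 15199 genes. The family was picked with the fold change of PELI2 in this comparison already known. The values of the 10 genes are therefore described without printed p-values. Where a gene is said to be called or not to pass, that is part of the description. HepG2 is an established human hepatoma line, kept in DMEM with serum and antibiotics. The control libraries carry a control hairpin (Ctrl shRNA) and the others a hairpin to STAT3 (STAT3 shRNA), with 2 libraries in each group. The sources used here do not give the hairpin sequences, the number of hairpins or clones, or whether the cultures of a group were separate. The tests therefore set the difference between groups only against how far the libraries of a group lie apart, a spread that may be technical.

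Interleukin-1 receptors and most Toll-like receptors signal through MYD88, which gathers IRAK4 and then IRAK1 or IRAK2 into a complex at the receptor. Pellino proteins bind phosphorylated IRAKs through a forkhead-associated domain and attach ubiquitin chains with a RING-like domain. TAB2 reads such chains and, with TAB1, brings the kinase TAK1 (the product of MAP3K7) into action upstream of the IKK complex, NF-kB and the stress MAP kinases.

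Because the hairpin targets a transcription factor, the start regions of the 10 genes were searched for the STAT element TTCNNNGAA, its longer-spaced form TTCNNNNGAA, the GC box GGGCGG and the kappaB element, on both strands. RefSeq windows (GRCh38.p14) of 250 bases before the RefSeq start were found for 10 of 10 genes. They make 12 windows, since PELI3 and TAB2 have more than 1 start. A RefSeq start need not be the start of the GENCODE 29 gene span. The PELI2 window and both TAB2 windows lie inside spans that begin further upstream, at 56117814 and 149218641. The sequence before those spans was not searched. The downstream PELI3 window also lies inside its span, which begins at 66466327. Some other windows, such as that of MYD88, run partly into the span of their gene. The 3 Pellino genes are shown because they are paralogs with different behaviour in these libraries. The stretches end where an annotated exon of GENCODE 29 begins, and capitals mark GC boxes.
PELI2 (chr14:56118161-56118374, plus strand): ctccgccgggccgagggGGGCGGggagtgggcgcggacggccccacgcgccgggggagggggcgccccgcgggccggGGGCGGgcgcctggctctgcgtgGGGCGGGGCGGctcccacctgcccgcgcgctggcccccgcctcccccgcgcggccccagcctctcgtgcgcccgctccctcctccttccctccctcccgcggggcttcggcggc
PELI1 (chr2:64144455-64144670, minus strand): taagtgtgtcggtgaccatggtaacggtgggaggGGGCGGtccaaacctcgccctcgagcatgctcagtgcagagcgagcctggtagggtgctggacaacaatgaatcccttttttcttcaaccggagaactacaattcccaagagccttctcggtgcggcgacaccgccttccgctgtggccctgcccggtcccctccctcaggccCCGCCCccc
PELI3 (chr11:66466077-66466326, plus strand): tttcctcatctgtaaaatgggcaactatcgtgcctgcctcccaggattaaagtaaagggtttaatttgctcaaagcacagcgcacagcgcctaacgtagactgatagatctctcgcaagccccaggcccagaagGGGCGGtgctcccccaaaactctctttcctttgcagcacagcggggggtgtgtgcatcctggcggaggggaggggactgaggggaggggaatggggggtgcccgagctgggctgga
The full PELI2 window held 37 CpG dinucleotides, a count reached by 4.0% of all 35116 windows, against 16 for PELI1 and 9 for the PELI3 start shown, where the median over all windows was 11. The PELI2 window had 4 GC boxes, 1 kappaB match and no match to either STAT element. Such counts were not particular to PELI2. The other PELI3 start held 21 CpG dinucleotides and 5 GC boxes, and the IRAK1 window held 43, with 4 GC boxes and 1 kappaB match. A TTCNNNGAA match occurred in 1 of the 12 windows, that of MYD88, and 6.57% of all windows held one. It lies 67 bases before the RefSeq start, inside an exon of GENCODE 29, and is shown with 10 bases on either side, the match in capitals.
MYD88 (chr3:38138584-38138612, plus strand): agggcggcgcTTCTCGGAAagcgaaagcc
TTCNNNNGAA was found in the IRAK4 window alone (5.38% of all windows). GC boxes were found in 11 of the 12 windows (42.6% of all windows), and the kappaB element in 4 of the 12, in IRAK1, PELI2, 1 window of PELI3 and 1 of TAB2 (9.96% of all windows). Such matches are letters only and say nothing about binding.

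Total counts ran from 17694642 to 25862027 per library. STAT3 was at 245.03 and 244.3 CPM (counts relative to the library's total, scaled by TMM) in Ctrl shRNA and at 34.7 and 36.1 CPM in STAT3 shRNA and its log2 fold change was -2.79 ± 0.09 (SE; edgeR adjusted p = 3.28e-07). Of the defining hepatocyte genes in the table, those for secreted plasma proteins were at or near 0 or low, although the labels name a liver line. Albumin (ALB) had 0 CPM in 3 libraries and 0.163 CPM in the other, and apolipoprotein A1 (APOA1) was at most 0.109 CPM. Transferrin (TF) fell from 2.01 and 2.14 CPM in Ctrl shRNA to 0.90 and 0.435 CPM in STAT3 shRNA (edgeR adjusted p = 0.0236). HNF4A, the hepatocyte transcription factor, rose from 1.27 and 1.78 CPM to 7.20 and 4.95 CPM, a 3.99-fold difference (edgeR adjusted p = 0.00131). The other 6 of the 10 listed hepatocyte markers were not analysed here, the libraries are called by their labels, and the part of these markers in the results was not tested. Of 10 listed macrophage markers 4 were in the table, with 2 (ITGAM and AIF1) at 0 in every library and a summed level of 0.212 and 0.575 CPM in Ctrl shRNA and 0.188 and 0 CPM in STAT3 shRNA. Endothelial markers (4 of 8 in the table) summed to 1.20 to 1.79 CPM. The 8 fibroblast and stellate markers summed to 57.3 and 66.9 CPM in Ctrl shRNA and 46.4 and 43.1 CPM in STAT3 shRNA. COL1A1 among them fell from 38.1 and 43.2 CPM to 15.01 and 14.3 CPM, while DCN rose from 10.4 and 11.3 CPM to 14.6 and 15.3 CPM and ACTA2 from 2.97 and 4.44 CPM to 9.15 and 6.41 CPM (edgeR adjusted p = 5.0e-05, 0.0329 and 0.0132). The part of these markers in the results was not tested.

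Of the 10 genes, 3 (PELI2, TAB2 and IRAK4) were called higher with STAT3 shRNA and 1 (IRAK1) was called lower at an adjusted p under 0.05 in edgeR's quasi-likelihood fit over all genes. Across all tested genes 35.5% were called, 16.8% higher and 18.7% lower. CPM of the groups did not overlap for 8 of the 10 genes, a pattern seen in 70.8% of tested genes. Their median log2 fold change was 0.25, and that of all tested genes 0.02. The family was chosen from this same comparison, so nothing is read from these counts. The count of 4 was 2 without STAT3 shRNA replicate 1, 2 without STAT3 shRNA replicate 2 and 2 with an offset for GC content, each time PELI2 and TAB2.

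**Figure D1:**
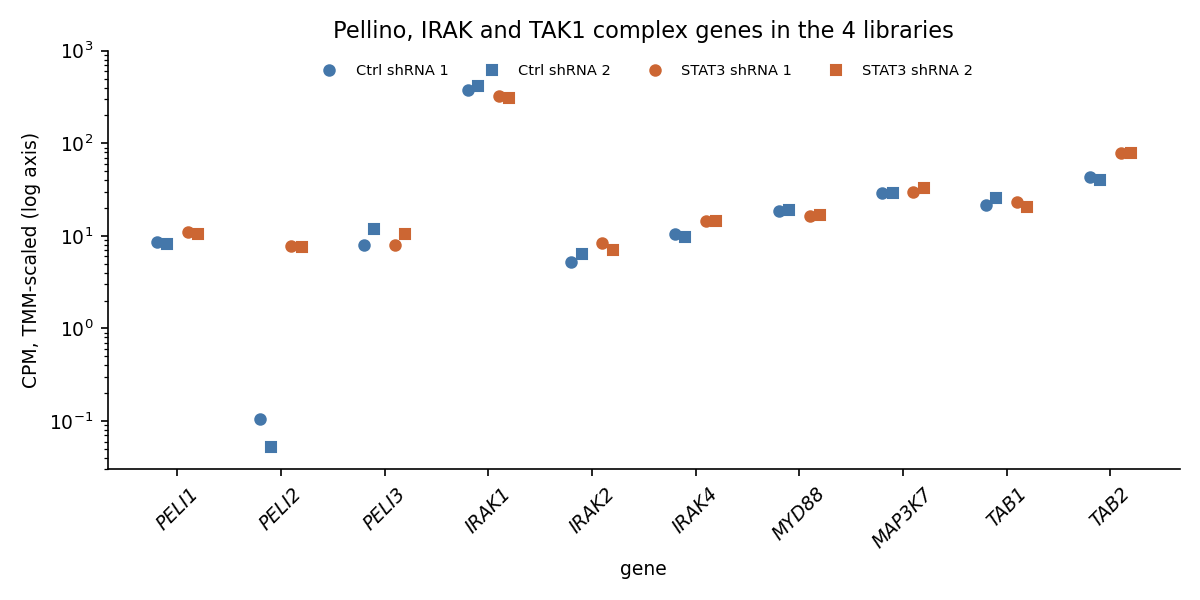
CPM of the 10 genes in each library on a log axis, with blue for Ctrl shRNA and orange for STAT3 shRNA (circles replicate 1, squares replicate 2). PELI2 is the only gene of the 10 whose groups lie far apart, near 0.1 CPM or below against 7.77 and 7.55 CPM, and IRAK1 lies far above the others in all 4 libraries.

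PELI2 (ENSG00000139946.10; chromosome 14, 56117814 to 56301526, plus strand, GRCh38) was close to silent in Ctrl shRNA and clearly read in STAT3 shRNA. Its reads numbered 2 and 1 in Ctrl shRNA (0.106 and 0.0523 CPM) and 207 and 139 in STAT3 shRNA (7.77 and 7.55 CPM). Both STAT3 shRNA libraries were at nearly the same level, and the groups were far apart. The ratio of summed, scaled reads was 97.2, with a 95% exact binomial interval of 33.0 to 473.8 that covers counting error only. The fitted log2 fold change was 6.50 ± 0.39 (SE), rank 33 from the top of 15199 tested genes. With 3 control reads in all, the size of the ratio is loosely fixed, and with 1 library left out the fitted value ran from 6.09 to 7.01.

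The deposited FPKM, which scale reads by length, gave a smaller difference for PELI2. They were 0.02 and 0.19 in Ctrl shRNA and 2.62 and 1.77 in STAT3 shRNA. The Ctrl shRNA library with 1 read thus carries a higher FPKM than the library with 2 reads, so the FPKM were not a simple scaling of these counts. With nothing added to the values, the log2 ratio of mean levels was 4.39 in FPKM and 6.60 in CPM. On log2(FPKM + 1) the fold change was 1.52 and on log2(FPKM + 0.1) it was 3.60, scales that further understate changes of low genes.

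None of the 10 tested neighbours of PELI2 differed by a like amount. PELI2 was picked with its large fold change known, so such a gap was likely beforehand and nothing is read from it. The tested neighbours nearest to it were KTN1, the kinesin receptor kinectin, whose start lies 558.7 kb upstream (252.6 and 155.02 CPM in Ctrl shRNA against 237.1 and 217.8 CPM), and TMEM260, a mannosyltransferase, 370.5 kb downstream (7.11 and 5.65 CPM against 9.27 and 7.83 CPM). Neither passed the test, with log2 fold changes of 0.16 (edgeR adjusted p = 0.541) and 0.43 (0.118). Of the 5 tested genes on either side, 4 rose and 1 fell. The mitotic gene DLGAP5 rose by 0.45 on the log2 scale (edgeR adjusted p = 0.00538), the autophagy gene ATG14 by 0.32 (0.0334), the exocyst gene EXOC5 by 0.38 (0.0435) and AP5M1, a vesicle adaptor subunit, by 0.42 (0.0101). The actin-related gene ACTR10 fell by 0.26 (0.0476). FBXO34, KTN1-AS1 and NAA30 had log2 fold changes of 0.23, 0.38 and 0.20 and did not pass. The 10 neighbours had a median of 0.35 and a highest value of 0.45, where PELI2 had 6.50.

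**Figure D2:**
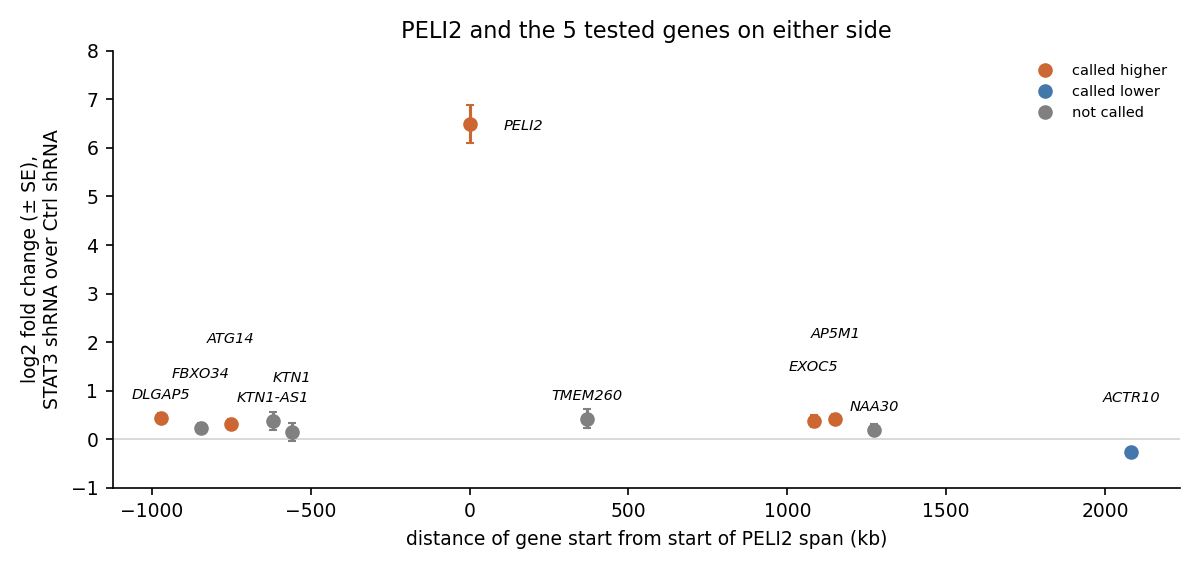
Log2 fold change (± SE from the edgeR fit, 2 libraries per group) of PELI2 and the 5 tested genes on either side, against the distance of each gene's start from that of PELI2 in kb. PELI2, picked with its fold change known, stands at 6.50 while its neighbours lie between -0.26 and 0.45.

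The other Pellino genes were read in both groups, at CPM in every library above the highest of PELI2. PELI1 (ENSG00000197329.12; chromosome 2, 64092652 to 64144454, minus strand), the paralog best known as a brake on T cell activation and as a mediator of Toll-like receptor signalling through TRIF, was at 8.59 and 8.10 CPM in Ctrl shRNA and at 11.1 and 10.5 CPM in STAT3 shRNA. The groups did not overlap, but the fitted log2 fold change of 0.38 ± 0.16 (SE) did not pass the threshold. PELI3 (ENSG00000174516.15; chromosome 11, 66466327 to 66477337, plus strand) was at 7.90 and 11.9 CPM in Ctrl shRNA and at 8.07 and 10.5 CPM in STAT3 shRNA. Its groups overlapped, the libraries numbered 2 being the higher of each pair, and its log2 fold change was -0.10 ± 0.23 (SE). PELI3 shares 412 bases with the opposite-strand gene MRPL11, which had 702.4% as many reads, so PELI3 is uncertain to that extent where strand was not used in counting.

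Per length, PELI2 was the smallest part of the Pellino transcripts in every library and a visible part only with STAT3 shRNA. In FPKM the sum of the 3 genes was 7.02 and 8.42 in Ctrl shRNA and 9.47 and 10.2 in STAT3 shRNA. PELI2 made up 0.285% and 2.26% of that sum in Ctrl shRNA, and 27.7% and 17.4% in STAT3 shRNA. PELI1 went from 52.4% and 38.7% to 34.6% and 31.7%, and PELI3 from 47.3% and 59.03% to 37.7% and 50.98%. PELI1 itself hardly moved in FPKM, at 3.68 and 3.26 against 3.28 and 3.23. The order of PELI1 and PELI3 was not the same in the Ctrl shRNA libraries, so the levels of these paralogs do not differ beyond their spread there.

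**Figure D3:**
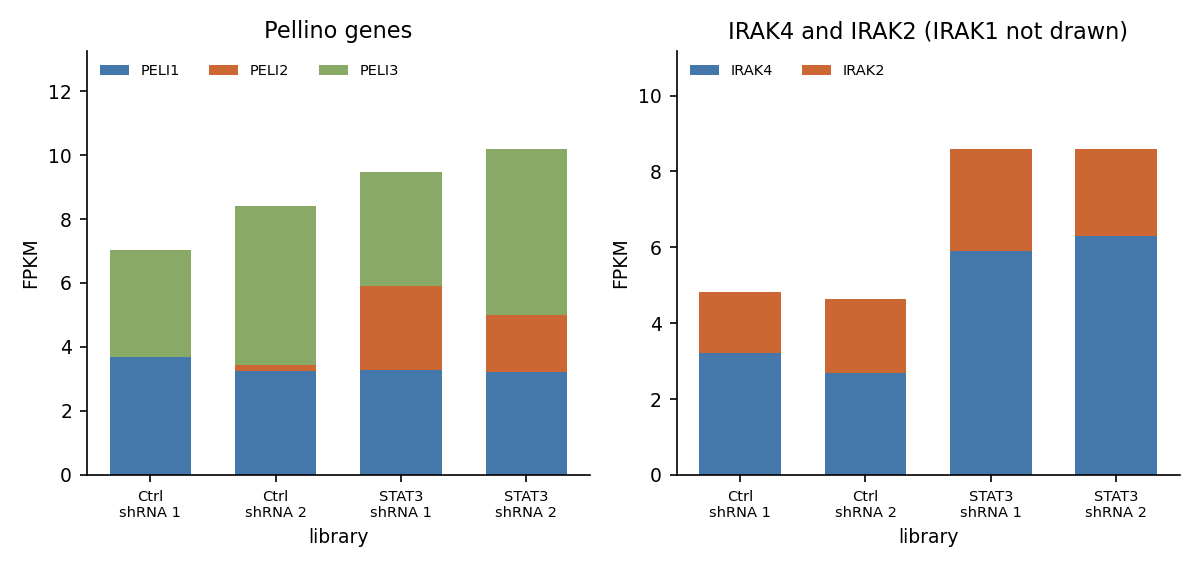
Deposited FPKM of the Pellino genes (left) and of IRAK4 and IRAK2 (right), stacked for each library. PELI2 adds 2.62 and 1.77 FPKM in the STAT3 shRNA libraries and at most 0.19 in the Ctrl shRNA libraries, and IRAK4 is at 5.90 and 6.29 FPKM against 3.22 and 2.68.

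Counts and FPKM related to each other differently in the groups for PELI1, IRAK4 and PELI2. Dividing a gene's share of the library's reads, as unscaled CPM, by its FPKM gives the length, in kb, that would link both tables. For PELI1 this length was 2.28 and 2.36 kb in Ctrl shRNA and 3.49 and 3.39 kb in STAT3 shRNA, a ratio of 1.48. A ratio that high was reached by 1.68% of 11236 genes with at least 1 FPKM and 50 reads in each library, whose median was 1.02. For IRAK4 it was 3.17 and 3.48 kb in Ctrl shRNA and 2.54 and 2.39 kb in STAT3 shRNA, a ratio of 0.741, and 1.22% of genes lay that low. The length is computed from deposited values and is not a measured isoform, and both genes were singled out after their values were seen. PELI1 accordingly had a log2 ratio of mean levels of 0.37 in CPM and -0.09 in FPKM, and IRAK4 0.52 in CPM and 1.05 in FPKM, and what makes both tables differ was not tested. For IRAK1, IRAK2, MAP3K7, PELI3, TAB1 and TAB2 the ratio lay between 0.926 and 1.02, and for MYD88 it was 1.16. For PELI2 it was 1.38, with lengths of 5.19 and 0.261 kb in Ctrl shRNA, computed from 2 and 1 reads, and 3.05 and 4.44 kb in STAT3 shRNA. PELI2 was outside the genes compared above because of its low control values.

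IRAK1 made up nearly all of the summed IRAK1, IRAK2 and IRAK4 transcripts in these cells. IRAK1 (ENSG00000184216.14; chromosome X, 154010500 to 154019980, minus strand), the kinase that is phosphorylated by IRAK4 and bound by Pellino proteins, was at 379.8 and 415 CPM in Ctrl shRNA and at 322 and 307 CPM in STAT3 shRNA. Both STAT3 shRNA libraries were lower than either control, with a log2 fold change of -0.34 ± 0.08 (SE), and the gene was called lower. The call did not hold throughout: with an offset for GC content the log2 fold change was -0.03, and it was lost without either STAT3 shRNA library and in FPKM. In FPKM, IRAK1 was at 129.6 and 134 in Ctrl shRNA and at 111 and 107.9 in STAT3 shRNA, between 92.6% and 96.7% of the summed IRAK1, IRAK2 and IRAK4.

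IRAK4 (ENSG00000198001.13; chromosome 12, 43758944 to 43789543, plus strand), the first kinase of the receptor complex, was higher with STAT3 shRNA. It was at 10.4 and 9.83 CPM in Ctrl shRNA and at 14.6 and 14.5 CPM in STAT3 shRNA, without overlap. Its log2 fold change of 0.52 ± 0.14 (SE) was called higher in counts and also in FPKM (3.22 and 2.68 against 5.90 and 6.29). The call was lost with the GC offset (log2 fold change 0.35), in DESeq2 (0.50) and without either STAT3 shRNA library. As a share of the summed FPKM of IRAK1, IRAK2 and IRAK4, IRAK4 went from 2.40% and 1.93% to 4.93% and 5.40%.

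IRAK2 (ENSG00000134070.5; chromosome 3, 10164865 to 10243743, plus strand), the kinase tied to late, sustained signalling, was the lowest of the 3 IRAK genes per length in each library. It was at 5.20 and 6.43 CPM in Ctrl shRNA and at 8.37 and 7.07 CPM in STAT3 shRNA, and the groups did not overlap. The log2 fold change was 0.41 ± 0.20 (SE) and did not pass. In FPKM it was 1.60 and 1.95 against 2.69 and 2.31. IRAK3, the inhibitory member of the family, was not analysed here.

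The adaptor MYD88 (ENSG00000172936.14; chromosome 3, 38138478 to 38143022, plus strand) was at 18.7 and 18.98 CPM in Ctrl shRNA and at 16.6 and 16.8 CPM in STAT3 shRNA. The groups were tight and did not overlap, but the log2 fold change of -0.17 ± 0.12 (SE) did not pass. In FPKM the Ctrl shRNA libraries were further apart, at 10.00 and 7.69, than the STAT3 shRNA libraries at 7.11 and 7.22.

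Of MAP3K7, TAB1 and TAB2, TAB2 was called higher and the others did not pass. TAB3, the paralog of TAB2, is described with the kinases below. TAB2 (ENSG00000055208.19; chromosome 6, 149218641 to 149411613, plus strand), the subunit that binds ubiquitin chains, was at 43.8 and 39.996 CPM in Ctrl shRNA and at 78.2 and 79.2 CPM in STAT3 shRNA. Both STAT3 shRNA libraries were well above the controls, with a log2 fold change of 0.91 ± 0.09 (SE), a 1.88-fold difference. Its log2 fold change ran from 0.71 to 1.10 over the alternative runs. These reuse the same libraries, so this range is a description and no support. The kinase gene MAP3K7 (ENSG00000135341.18; chromosome 6, 90513573 to 90587045, minus strand) was at 28.8 and 29.1 CPM against 29.9 and 33.1 CPM, a log2 fold change of 0.12 ± 0.10 (SE). TAB1 (ENSG00000100324.14; chromosome 22, 39399741 to 39437060, plus strand), which binds and activates TAK1, was at 21.7 and 25.9 CPM against 23.1 and 20.5 CPM, with overlapping groups and a log2 fold change of -0.12 ± 0.13 (SE).

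Per length, the 3 TAK1 complex genes and MYD88 lay close together in Ctrl shRNA and TAB2 stood above the others in STAT3 shRNA. In Ctrl shRNA the mean FPKM were 10.2 ± 1.22 for TAB2, 8.85 ± 1.63 for MYD88, 8.20 ± 0.948 for TAB1 and 8.04 ± 0.134 for MAP3K7 (SD, n = 2 each), and neighbours in this order did not differ beyond their spread. In STAT3 shRNA they were 22.0 ± 2.10 for TAB2, 9.38 ± 1.01 for MAP3K7, 8.79 ± 1.31 for TAB1 and 7.17 ± 0.0778 for MYD88. TAB2 was the highest of the 4 in both STAT3 shRNA libraries, at 20.5 and 23.5 FPKM. Above them stood IRAK1, at 131.8 ± 3.14 in Ctrl shRNA and 109.5 ± 2.23 in STAT3 shRNA. Below them came PELI3, PELI1 and IRAK4 in Ctrl shRNA, at 4.14 ± 1.17, 3.47 ± 0.297 and 2.95 ± 0.382 FPKM, then IRAK2 at 1.77 ± 0.247 and PELI2 at 0.105 ± 0.120.

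**Figure D4:**
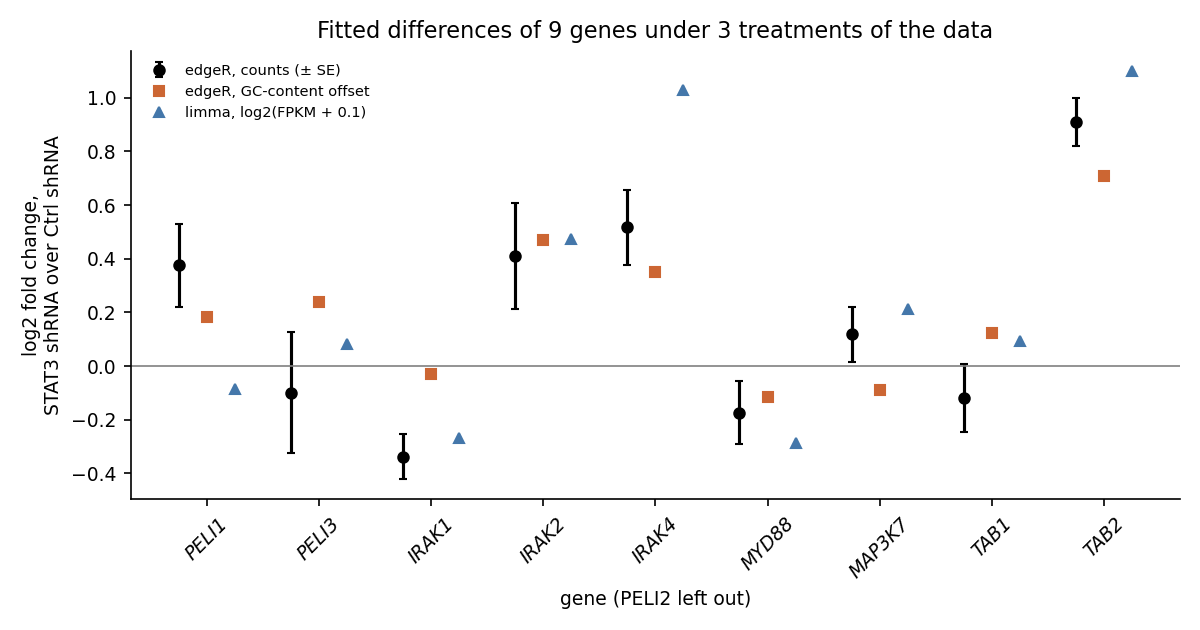
Log2 fold changes of 9 genes (PELI2 left out for scale) from the edgeR fit of counts (black, ± SE, 2 libraries per group), the same with a GC-content offset (orange) and limma on log2(FPKM + 0.1) (blue). TAB2 is high in all of them (0.91, 0.71 and 1.10), IRAK1 goes from -0.34 to -0.03 with the offset, and PELI1 changes sign in FPKM.

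Base composition and position moved with some of these differences and not with others. Over 14542 tested genes the GC content of the longest transcript and the log2 fold change had a Spearman rho of -0.339, computed over genes, which do not act as independent replicates. The genes called higher had GC contents of 42.0% (PELI2), 39.8% (TAB2) and 42.1% (IRAK4), and IRAK1, called lower, had 63.04%, where the median of tested genes was 48.7%. PELI3 and TAB1, also rich in GC (63.7% and 60.4%), changed sign with the offset, to 0.24 and 0.12, and MAP3K7 (38.7%) to -0.09. The 5 tested neighbours on either side of IRAK1 had a median log2 fold change of -0.37, with 5 lower and 0 higher, beside -0.34 for IRAK1. Those of IRAK4 had a median of 0.39 with 4 higher and 1 lower, beside 0.52, and those of PELI1 a median of 0.35 with 5 higher and 0 lower, beside 0.38. The neighbours of IRAK4 ranged widely, from -3.11 to 1.39. Other genes did not follow theirs: MYD88 at -0.17 lay beside neighbours with a median of 0.14, and IRAK2 at 0.41 beside a median of 0.03. For PELI3, MAP3K7 and TAB1 the neighbours had medians of -0.28, 0.17 and -0.13, beside -0.10, 0.12 and -0.12. TAB2 at 0.91 lay above the highest of its 10 neighbours (0.87; median 0.26). The part of position in these values was not tested.

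The other genes of the pathway were read from lists by role: 118 genes, of which 98 were in the table and 80 were tested. Of the 80, 19 rose, 16 fell and 45 did not pass, so 43.8% were called beside 35.5% of all tested genes, and their median log2 fold change was 0.10 beside 0.02. The count of 35 dropped to 18 without STAT3 shRNA replicate 1 and 17 without STAT3 shRNA replicate 2, and was 13 or 14 with FPKM. Like the 10 genes, the lists were written with earlier results of these data known.

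**Figure D5:**
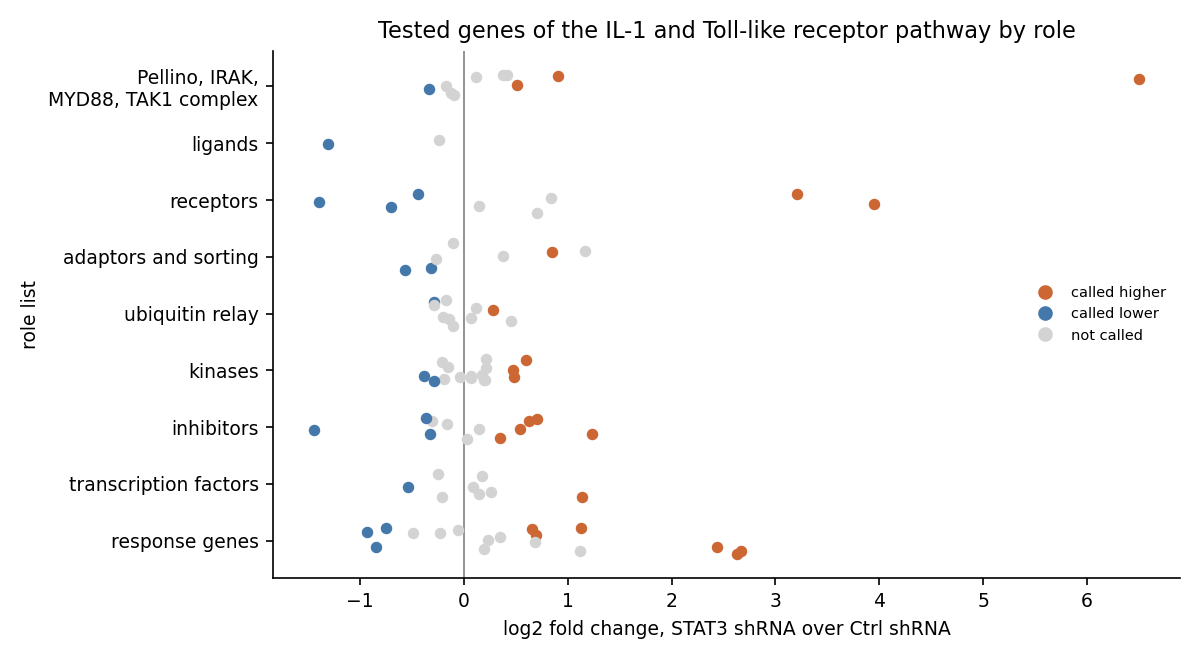
Log2 fold change (edgeR fit, 2 libraries per group) of the 10 genes and of 80 tested genes of the pathway, 1 point a gene, in rows by role and with vertical scatter only to separate points. PELI2 lies furthest to the right at 6.50, followed by TLR5 and TLR4 among receptors and PTGS2, LCN2 and IL32 among response genes.

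Of 12 listed ligands and ligand-binding proteins, 7 were in the table and 2 had enough reads to be tested, IL18 and IL18BP. The cytokine gene IL18 was well read, at 103.3 and 99.9 CPM in Ctrl shRNA and 80.8 and 91.7 CPM in STAT3 shRNA, and its log2 fold change of -0.24 did not pass (edgeR adjusted p = 0.0739). IL18BP, the decoy for interleukin-18, fell from 5.20 and 4.08 CPM to 1.46 and 2.34 CPM (edgeR adjusted p = 0.0115), but NUMA1 on the opposite strand over 2852 shared bases had far more reads, so IL18BP is uncertain without strand. The call was also lost without STAT3 shRNA replicate 1 (edgeR adjusted p = 0.0997) and in FPKM. Among 8 tested receptors 2 rose, 3 fell and 3 did not pass. IL1RAP, the shared chain of interleukin-1 family receptors, fell from 23.4 and 21.4 CPM to 8.55 and 8.53 CPM, a log2 fold change of -1.39 ± 0.13 (SE; edgeR adjusted p = 0.000145). TLR4, the receptor for lipopolysaccharide, had 3 and 7 reads in Ctrl shRNA and 72 and 41 in STAT3 shRNA (0.159 and 0.366 against 2.70 and 2.23 CPM; edgeR adjusted p = 0.0015). TLR5, the flagellin receptor, had 0 and 2 reads against 31 and 11, 17.7 times as many after scaling (95% counting interval 4.61 to 151; edgeR adjusted p = 0.0117). The sizes rest on few control reads. Without Ctrl shRNA replicate 1 or 2 the log2 fold change of TLR4 was 2.71 or 3.91, against 3.20 with all libraries, and its call was lost on log2(FPKM + 1). That of TLR5 was 3.95 with all libraries and 3.0 without Ctrl shRNA replicate 1. Without Ctrl shRNA replicate 2, TLR5 had 0 control reads, which gives no fixed size, and without STAT3 shRNA replicate 1 it had too few reads to be tested. These Toll-like receptors stayed at low levels. The macrophage markers in the table were at or near 0, and a part of other cells was not tested.

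Adaptors and sorting proteins had 1 higher and 2 lower of 7. TICAM1 (TRIF), the MYD88-independent adaptor, fell from 35.2 and 34.9 CPM to 23.5 and 23.8 CPM (log2 fold change -0.57; edgeR adjusted p = 0.00262), a call lost with the GC offset (-0.26) and in FPKM. TOLLIP, an endosomal adaptor that restrains the receptors, fell by 0.31 (adjusted p = 0.0423 in edgeR; range over its alternatives 0.00451 to 0.394, and lost without 3 of the 4 libraries in turn, all but Ctrl shRNA replicate 1). SARM1, an NAD-cleaving TIR protein, rose from 4.93 and 4.55 CPM to 8.10 and 8.97 CPM (edgeR adjusted p = 0.00786), on a span shared with SLC46A1 and VTN of the opposite strand, which had 1048% and 203.9% as many reads, and its call was lost without STAT3 shRNA replicate 2 and in FPKM. In the ubiquitin relay downstream of the IRAKs, 1 gene rose and 1 fell of 10. TRAF6, the ligase that acts with Pellino proteins on IRAK1, was at 12.5 and 10.4 CPM in Ctrl shRNA and at 14.3 and 17.1 CPM in STAT3 shRNA. Its log2 fold change of 0.46 ± 0.16 (SE) missed the threshold (edgeR adjusted p = 0.0537) and passed it in 4 alternatives, among them without Ctrl shRNA replicate 1 (0.0165). UBE2N, the conjugating enzyme of TRAF6 and Pellino proteins, had a log2 fold change of -0.14 (edgeR adjusted p = 0.23) and shares 2474 bases with the opposite-strand gene NUDT4. Its cofactors UBE2V1 and UBE2V2 rose by 0.28 and fell by 0.29 (edgeR adjusted p = 0.0459 and 0.0378), and UBE2V1 has a near-identical readthrough transcript, TMEM189-UBE2V1. Both calls were lost without either STAT3 shRNA library and in FPKM, that of UBE2V2 also with upper-quartile scaling, and that of UBE2V1 also without Ctrl shRNA replicate 2, with RLE scaling, in DESeq2 and with the GC offset.

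Among 16 tested kinases and kinase partners 3 rose, 2 fell and 11 did not pass. TAB3, the paralog of TAB2, rose from 46 and 42.3 CPM to 57.9 and 65.5 CPM (log2 fold change 0.48 ± 0.10 SE; edgeR adjusted p = 0.00675), a call that was lost without STAT3 shRNA replicate 2 (0.133) and in FPKM. The paralogs TAB2 and TAB3 thus both had higher counts with STAT3 shRNA, and the unrelated TAB1 did not pass. TBK1 and IKBKE, the IKK-related kinases that phosphorylate IRF3, rose by 0.48 and 0.60 (edgeR adjusted p = 0.0207 and 0.0336), and both calls were lost without either STAT3 shRNA library, and both in FPKM. That of TBK1 was also lost with the GC offset (0.28), and that of IKBKE in DESeq2 and without Ctrl shRNA replicate 1. The IKK genes CHUK, IKBKB and IKBKG had log2 fold changes of -0.21, -0.04 and 0.21, and none passed.

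Inhibitors had 5 higher and 3 lower of 12 tested. TNFAIP3 (A20), which trims ubiquitin chains from TRAF6, rose from 31 and 30.3 CPM to 45.4 and 49.5 CPM (log2 fold change 0.63; edgeR adjusted p = 0.00157). DUSP1, a phosphatase of stress kinases, rose from 109.4 and 118.7 CPM to 170.8 and 201.1 CPM (edgeR adjusted p = 0.00105). ZC3H12A (regnase-1), a nuclease of inflammatory mRNAs, fell from 21.3 and 29.5 CPM to 9.57 and 9.19 CPM (log2 fold change -1.44; edgeR adjusted p = 0.000415). Of 8 transcription factors 1 rose and 1 fell. IRF5, which works downstream of MYD88, rose from 3.29 and 3.35 CPM to 8.07 and 6.52 CPM (edgeR adjusted p = 0.00384), and IRF3 fell from 77.7 and 99.2 CPM to 62.1 and 59.7 CPM (edgeR adjusted p = 0.0083), sharing 734 bases with the opposite-strand gene BCL2L12. The IRF5 call was lost without STAT3 shRNA replicate 1, the IRF3 call without STAT3 shRNA replicate 2, and both in FPKM. The NF-kB genes NFKB1, NFKB2, REL, RELA and RELB had log2 fold changes from -0.24 to 0.18 and none passed. Of 17 tested response genes 6 rose, 3 fell and 8 did not pass, led by PTGS2, LCN2 and IL32 at log2 fold changes of 2.67, 2.63 and 2.43 (edgeR adjusted p = 5.6e-06, 3.01e-05 and 2.69e-06). NFKBIA, the feedback inhibitor of NF-kB, had a log2 fold change of 0.20 and did not pass (edgeR adjusted p = 0.111).

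The genes whose levels over the 4 libraries were most like those of PELI2 were, by this choice, near 0 in Ctrl shRNA and read at a few CPM in STAT3 shRNA. Likeness was the Euclidean distance of log2(CPM + 0.5) over 4 libraries, with distances of 0.175 to 1.05. Only tested genes with an Ensembl ID and a symbol that is not a clone or numbered-locus name were eligible. The nearest of these was FMOD, the collagen-binding proteoglycan fibromodulin, at 0.106 and 0.105 CPM against 8.37 and 7.88 CPM. BAIAP2L2 went from 0.159 and 0.209 CPM to 6.11 and 5.65 CPM, and NMNAT2, an enzyme of NAD synthesis, from 0.212 and 0.0523 CPM to 4.69 and 6.68 CPM. MUC13, an epithelial mucin, had 2 reads in Ctrl shRNA and 220 in STAT3 shRNA, 92.7 times as many after scaling (95% counting interval 25.4 to 770.6). CD33, a sialic acid-binding receptor known from myeloid cells, was at 0.371 and 0.523 CPM against 8.82 and 8.32 CPM. Of 10 listed macrophage markers 4 were in the table, at or near 0, and a part of other cells was not tested. BAIAP2L2 shares its span with AL022322.1, which had 21.5% as many reads.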

How the data were processed

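The series holds 4 RNA-seq libraries, 2 per group, in tables of 27452 genes with identical gene IDs in both. Per the file headers the authors deposited read counts (whole numbers, not normalized) and FPKM with 2 decimals for each gene. Aligner, counting tool, build, annotation, library kit and strand use were not given in the sources used here. Columns were matched to samples by name; "Si" in 2 column names is not explained by the labels and was read as STAT3 shRNA, the only group without Ctrl in its name. Gene positions, transcript GC and overlaps come from GENCODE 29 (25992 IDs found without version), promoters from RefSeq.

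Counts were fitted with edgeR 4.0.16 in R 4.3.3 (TMM, filterByExpr, glmQLFit and glmQLFTest, group as the only term, two-sided). Adjustment was Benjamini-Hochberg over 15199 genes, with a threshold of 0.05. The fit was also run on simulated counts with a common dispersion for all genes and few changed genes. That setting is simpler than these data, so it does not vouch for the calls here. Depth was 17694642 to 25862027 counts per library. Alternatives were RLE and upper-quartile scaling, other low-count filters, DESeq2 1.42.0, a block for the replicate number, omission of each library in turn, limma 3.58.1 on log2(FPKM + 1) and log2(FPKM + 0.1), a GC offset (lowess per library) and a threshold of 0.01. Near-identical copies were sought with blastn 2.17.0 (95% identity over 50% of the longest transcript). Genes and lists were chosen with earlier results of these data known. Named were the 10 genes, STAT3, the 3 smallest p-values among called, non-overlapping genes of each role list, TRAF6, TAB3, UBE2N, IRAK3, the 5 genes most like PELI2 and its 5 neighbours on either side; neighbour medians of other genes, and CHUK, IKBKB, IKBKG, NFKBIA and the NF-kB genes, were added after values were seen. Some listed genes are not analysed here.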

Additional observations from a re-analysis of the deposited data

How the results depend on the processing

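Of the 10 genes, 4 were called in the edgeR fit, and 4 with RLE, upper-quartile scaling and both other filters. The count was 3 with DESeq2 and with either FPKM scale, and 2 with the GC-content offset (all higher) and at a threshold of 0.01. With 1 library left out it ran from 2 to 4, that of all tested genes from 2527 to 7291 (5396 with all libraries) and that of pathway genes from 17 to 45 (35 with all libraries). Calls over all genes were 2535 and 2494 on log2(FPKM + 1) and log2(FPKM + 0.1) and 2897 at 0.01, and those of pathway genes 13, 14 and 20. Without a STAT3 shRNA library the lone sample is assumed to vary like the Ctrl shRNA pair.

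Directions turned for PELI1, PELI3, TAB1, MAP3K7, UBE2N and UBE2V2, of which UBE2V2 was called in the edgeR fit. On log2(FPKM + 1) and log2(FPKM + 0.1), log2 fold changes were -0.0695 and -0.0872 for PELI1, 0.0679 and 0.0829 for PELI3, 0.0863 and 0.0951 for TAB1, 0.21 and 0.214 for UBE2V2, and 0.0404 and 0.0410 for UBE2N (called lower with the GC offset, at -0.32). With the GC offset they were 0.24 for PELI3, 0.12 for TAB1 and -0.0878 for MAP3K7. With 1 library left out, PELI3 ran from -0.40 to 0.22, above 0 when Ctrl shRNA replicate 2 was omitted and when STAT3 shRNA replicate 1 was, and TAB1 from -0.27 to 0.0112, above 0 without Ctrl shRNA replicate 2. The cause was not tested. PELI2 and TAB2 were called higher in each alternative run, which is a description and no support, since the genes were chosen from this comparison.

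Same-numbered libraries showed no common deviation (correlation -0.028). Whether they were prepared together cannot be told from this value or from the labels. With the replicate block 5447 genes were called, 4 of the 10 genes and 33 pathway genes. Depth limits the size of the differences of genes with few control reads, such as PELI2 with 3 and TLR5 and MUC13 with 2. TLR5 had too few reads to be tested without STAT3 shRNA replicate 1.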
